A study of Rattus norvegicus with 3 samples.

Results

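Mitochondrial ribosomal protein genes were taken as every feature whose symbol begins with Mrpl or Mrps followed by a digit, which gave 73 of the 23098 features in the tables. They carry 72 symbols, since Mrps17 sits on 2 identifiers. By symbol, 43 belong to the large subunit (Mrpl) and 30 to the small subunit (Mrps). The rule uses the symbol alone, though it was set with earlier results of these data known. Outbred Wistar rats of 16 weeks gave the tissue, punched from the nucleus accumbens, for 3 single-nucleus libraries made with Chromium 3' chemistry 3.1. Animals were classed by their behaviour in the elevated plus maze and the open field with an unfamiliar object. The groups, with 1 library each, were untreated low anxiety rats, untreated high anxiety rats, and high anxiety rats given urolithin A, which gut bacteria make from plant ellagitannins, for 2 months. Each library pooled punches from 5 hemispheres, so animals cannot be separated. Without replicates there was no test: each comparison below is between 2 libraries, and the bounds given with a value are 95% bounds that cover counting error alone.

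The mitochondrial ribosome translates the few proteins that the mitochondrial genome encodes, all of them parts of the respiratory chain and the ATP synthase. Its proteins are encoded in the nucleus, made in the cytosol and imported, and they assemble on RNAs that are transcribed inside the organelle. Some descend from bacterial ribosomal proteins, while others are found only in mitochondrial ribosomes. Transcripts counted in nuclei are those of the nuclear genes, so they describe neither the assembled ribosome nor its activity.

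These transcripts were sparse. They made up 26969, 33708 and 30957 UMIs (unique molecular identifiers, the counted molecules) in the low anxiety, high anxiety and urolithin A libraries, or 0.172%, 0.165% and 0.176% of all UMIs in the 3379, 3694 and 3421 nuclei kept. The median nucleus had UMIs of 6, 7 and 7 different members. Over all libraries the large subunit genes had 47948 UMIs and the small subunit genes 43686. The 5 members with the most UMIs in each subunit held 31.3% of the large and 40.9% of the small subunit UMIs: Mrpl48, Mrpl3, Mrpl37, Mrpl17 and Mrpl1, and Mrps28, Mrps5, Mrps18c, Mrps27 and Mrps21. Transcript length was not used here, so levels were compared between classes and libraries but not between genes. In D1 medium spiny neurons, 32, 29 and 32 of the 73 features reached 100 UMIs in the 3 libraries, and in D2 neurons 20, 17 and 18. No member did in astrocytes, oligodendrocyte precursors or microglia, and no member was counted as measured there. Of the 72 symbols, 24 have a pseudogene or like copy named after them in RefSeq, among them Mrpl1, Mrpl17, Mrpl37, Mrps11, Mrps16, Mrps18b, Mrps18c, Mrps21 and Mrps36. Counts of these could be shared with a copy, and their values are uncertain to that extent.

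Classes were rebuilt by clustering the nuclei and named from marker genes, with no member among the 2000 variable genes used. D1 neurons, the medium spiny neurons with the dopamine receptor Drd1, comprised 750, 655 and 750 nuclei of the 3 libraries, always given in the order low anxiety, high anxiety, urolithin A. They came from 2 clusters, led by Ebf1, Dlk1 and Reln (350, 296 and 432 nuclei) and by Nmb, Il20ra and Drd3 (400, 359 and 318 nuclei). The D1 name of the second was the weaker, with 0 D1 markers among its 10 leading genes. D2 neurons, with the receptor Drd2, were 1 cluster of 555, 506 and 529 nuclei. The libraries shared 4 to 6 barcodes per pair.

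Every named class carried members, with sums between 1416 and 2409 UMIs per 1000000 UMIs of the class (CPM). In D1 neurons the large subunit genes summed to 927, 797 and 860 CPM in the libraries of low anxiety, high anxiety and urolithin A. The small subunit genes summed to 813, 777 and 808 CPM. The class named GABAergic interneurons, after markers of local inhibitory neurons, stood above D1 neurons in every library, with large subunit sums of 1035, 945 and 995 CPM. Its summed log2 ratios over D1 neurons were 0.20, 0.21 and 0.21 for all members, and each counting interval lay above 0. Its name is uncertain for many of its 166, 190 and 373 nuclei. Of these, 102, 103 and 238 came from a cluster led by Crh, Spp1 and Vip, with 1 marker of the class among its leading genes. Whether each cluster of the class stood above D1 neurons was not tested. Oligodendrocytes, the myelin-forming cells, had large subunit sums of 963, 1007 and 1008 CPM. Their summed log2 ratio over D1 neurons was 0.06 (-0.00 to 0.13), 0.27 (0.21 to 0.32) and 0.19 (0.14 to 0.25), the lowest in low anxiety. Mrps28 and Mrpl48, described below, weigh heavily on this sum, with log2 ratios between 1.03 and 1.36. Other members were below D1 neurons, and the sum without Mrps28 and Mrpl48 was not computed. It thus does not show that members in general were higher in oligodendrocytes. The cytosolic ribosomal protein genes stood further above D1 neurons in oligodendrocytes, at 0.79, 1.09 and 0.89. Oligodendrocyte nuclei were shallower, with medians of 1821, 2257 and 2157 UMIs against 6030, 7675 and 6672 in D1 neurons. D2 neurons differed from D1 neurons by -0.09, -0.04 and 0.03, and the interval crossed 0 in high anxiety and urolithin A. Eccentric medium spiny neurons, a subclass marked by Casz1, lay within 0.04 of D1 neurons in each library, with all 3 intervals across 0. Astrocytes did not keep 1 side of D1 neurons, at -0.16, 0.22 and 0.06. Microglia, the resident immune cells, were below D1 neurons in low anxiety and urolithin A, at -0.29 and -0.24, and level with them in high anxiety, at 0.00. Cholinergic interneurons had the highest sum in each library, 2409, 1955 and 2165 CPM, from only 15, 18 and 26 nuclei. Glutamatergic neurons had 1494, 1558 and 1795 CPM, the last from 21 nuclei.

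**Figure D1:**
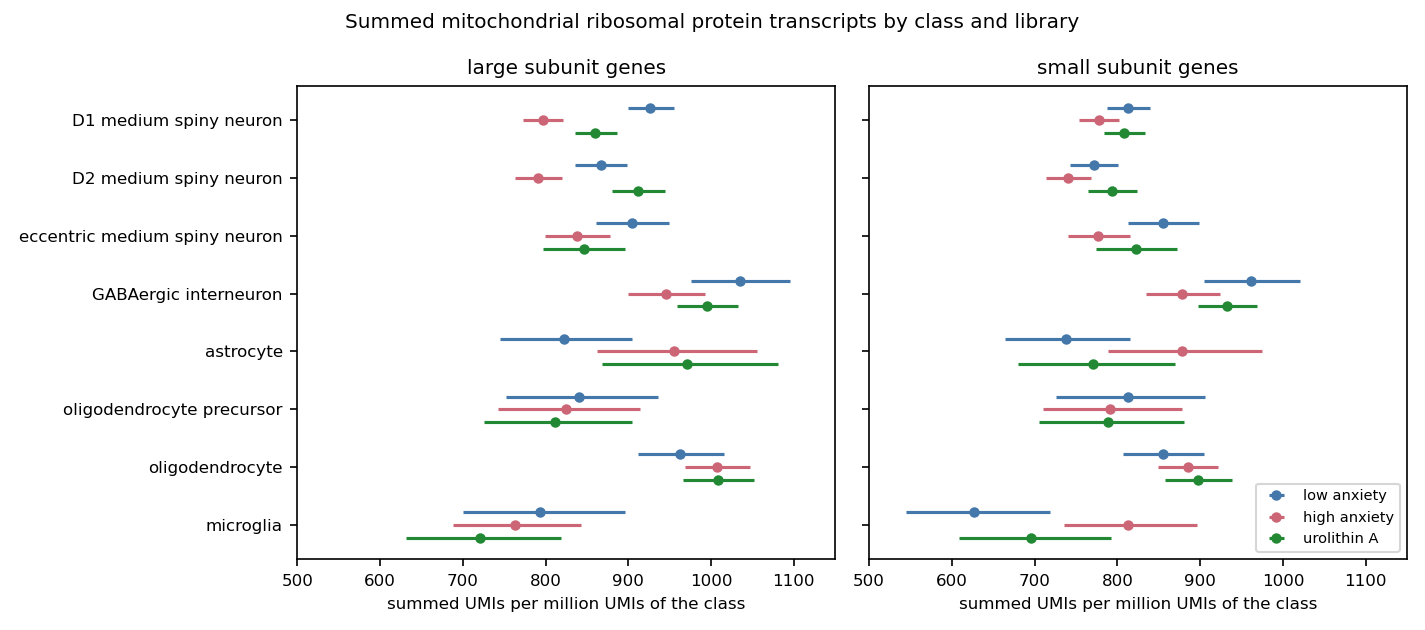
Summed CPM of the class for large subunit (left) and small subunit (right) genes, in the 8 classes with at least 100 nuclei in each library; the x axis starts at 500, points are libraries and bars are exact Poisson 95% intervals. The D1 large subunit sums of 927, 797 and 860 CPM do not overlap in their intervals, whereas the intervals of oligodendrocyte precursors overlap throughout.

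Single members differed between classes in opposite directions. The 26 members compared had at least 100 UMIs in oligodendrocytes or D1 neurons in each library. All 26 reached that number in D1 neurons in every library, and 3 of them, Mrpl3, Mrps28 and Mrpl48, in oligodendrocytes. The minimum thus favours members that are high in D1 neurons, and no count of directions is given. Mrps28, a bacterial S1 relative of the small subunit, stood at 217, 212 and 224 CPM in oligodendrocytes against 96.6, 102 and 109 CPM in D1 neurons. Mrpl48, a mitochondria-specific protein of the large subunit, stood at 153, 129 and 134 CPM against 59.3, 55.4 and 65.3 CPM. For both, every oligodendrocyte value was above every D1 value, with log2 ratios of 1.17, 1.06 and 1.03 for Mrps28 and 1.36, 1.22 and 1.04 for Mrpl48. Mrpl55, a homologue of bacterial L31, was at 0.15, 0.85 and 0.86, with the interval of low anxiety across 0. On the other side, Mrpl38, another mitochondria-specific large subunit protein, had 9.35, 10.2 and 11.2 CPM in oligodendrocytes and 39.4, 23.0 and 30.5 CPM in D1 neurons. Mrpl1, which forms the stalk of the tRNA exit site, had log2 ratios of -1.20, -0.89 and -1.17. Mrps16, a bacterial S16 homologue, had -1.21, -1.04 and -1.01. The counting intervals of Mrps28, Mrpl48, Mrpl38, Mrpl1 and Mrps16 stayed on 1 side of 0 in all 3 libraries.

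**Figure D2:**
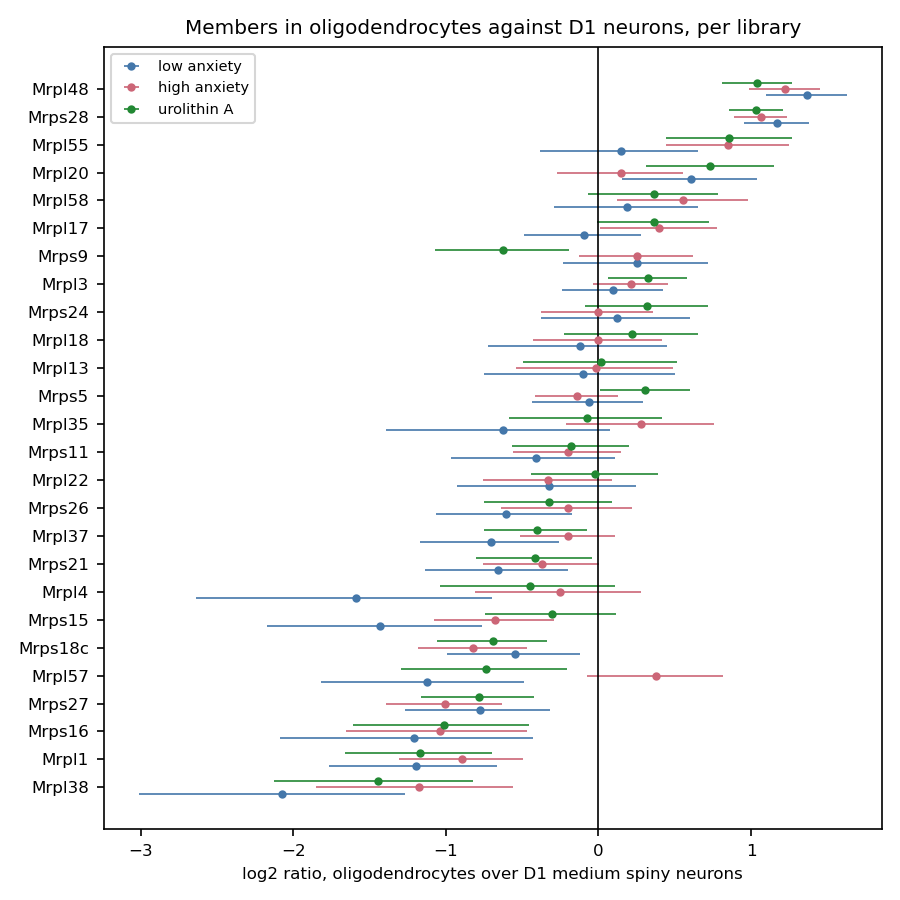
Log2 ratio of oligodendrocytes over D1 neurons within each library for the 26 members with enough UMIs, ordered by the median of the 3 libraries; points are libraries and bars are exact 95% counting intervals. Mrpl48 and Mrps28 lie near 1 in all 3 libraries, and Mrpl38, Mrpl1 and Mrps16 near -1 or below.

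In high anxiety against low anxiety, the summed members were lower in D1 neurons, more so for the large than for the small subunit. The sum of all members was 1740 CPM in low anxiety and 1574 CPM in high anxiety, a log2 ratio of -0.14 (-0.19 to -0.10). The large subunit sum differed by -14.0% (log2 ratio -0.22, -0.28 to -0.16) and the small subunit sum was at -0.06 (-0.13 to -0.00). Members with 100 UMIs or more in either library were taken as measured, and counted as higher or lower from a log2 ratio of 0.32 or -0.32 on. Of 34 measured members 13 were lower and 1 was higher. Of the lower ones, Mrpl43, Mrpl12, Mrpl15, Mrps7 and Mrps34 reached 100 UMIs in low but not in high anxiety. Mrps31, the higher one, did so in high but not in low anxiety. A minimum in either library favours such differences, in members and in all genes alike. Over all 7444 genes measured alike, 11.4% were lower and 7.58% were higher. Among genes with fewer than 300 UMIs in both libraries, to which 29 of the 34 members belong, 16.4% were lower and 10% were higher. All 13 lower members and the higher one were in that band, and the median log2 ratio of the 34 was -0.16, beside -0.01 for all genes. The median depended on thinly counted members and on the nuclei taken: with a minimum of 200 UMIs it was 0.05 and 3 members were lower, and in the 2 D1 clusters apart it was 0.08 and 0.02.

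The 5 members with the lowest D1 ratios were also lower in D2 neurons. Both classes come from the same libraries, so the D2 values are not an independent repeat of the D1 values. Mrpl17, the homologue of bacterial L17 beside the peptide exit tunnel, had 267, 150 and 185 UMIs in D1 neurons, or 56.9, 28.5 and 35.3 CPM. In D2 neurons it had 53.2, 28.5 and 40.1 CPM. The high anxiety library was the lowest in both classes, with log2 ratios over low anxiety of -0.996 (-1.29 to -0.70) and -0.90 (-1.25 to -0.55). Mrps26, a mitochondria-specific small subunit protein, had 56.9, 29.7 and 37.4 CPM in D1 and 47.4, 27.8 and 33.8 CPM in D2 cells. Its log2 ratios were -0.94 (-1.23 to -0.65) and -0.77 (-1.14 to -0.41). Low anxiety was the highest library for this gene in both classes.

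Mrpl38 had 39.4, 23.0 and 30.5 CPM in D1 and 35.2, 23.8 and 27.0 CPM in D2 cells, with log2 ratios of -0.78 and -0.56. Mrpl57, a small mitochondria-specific protein of the large subunit, had 36.0, 21.1 and 28.8 CPM in D1 and 31.1, 19.4 and 32.1 CPM in D2 cells, with log2 ratios of -0.77 and -0.68. Mrpl58, a peptidyl-tRNA hydrolase (also called ICT1) built into the large subunit, had 32.8, 21.3 and 26.1 CPM in D1 and 36.9, 19.4 and 29.8 CPM in D2 cells. Its log2 ratios were -0.62 (-0.99 to -0.26) and -0.93 (-1.36 to -0.51). For all 3 genes the high anxiety library was the lowest of the 3 in both classes, and the intervals of both ratios lay below 0.

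Mrps31, a mitochondria-specific small subunit protein, was the 1 member higher in D1 neurons, with 80, 129 and 125 UMIs and a log2 ratio of 0.53 (0.11 to 0.95). Its count reached 100 UMIs in high but not in low anxiety. In D2 neurons it had 86, 92 and 65 UMIs, under the 100 needed. Mrps11, a bacterial S11 homologue, had 35.4, 43.2 and 41.2 CPM in D1 and 28.5, 47.1 and 39.5 CPM in D2 cells. Its log2 ratio was 0.29 (-0.01 to 0.59) in D1 neurons and 0.73 (0.36 to 1.10) in D2 neurons. Within D1 neurons it was 0.74 in the Ebf1 cluster and -0.04 in the Nmb cluster. Mrps28 had 453, 534 and 573 UMIs in D1 neurons and a ratio of 0.07 (-0.11 to 0.26). Of the other members with the most UMIs, Mrpl3 was at 0.09, Mrps5 at 0.17, Mrps27 at 0.07, Mrps18c at 0.05, Mrpl37 at -0.03, Mrpl48 at -0.10 and Mrpl1 at -0.18, all with intervals across 0. Mrps21 was the exception beside Mrpl17, at -0.36 (-0.63 to -0.09).

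**Figure D3:**
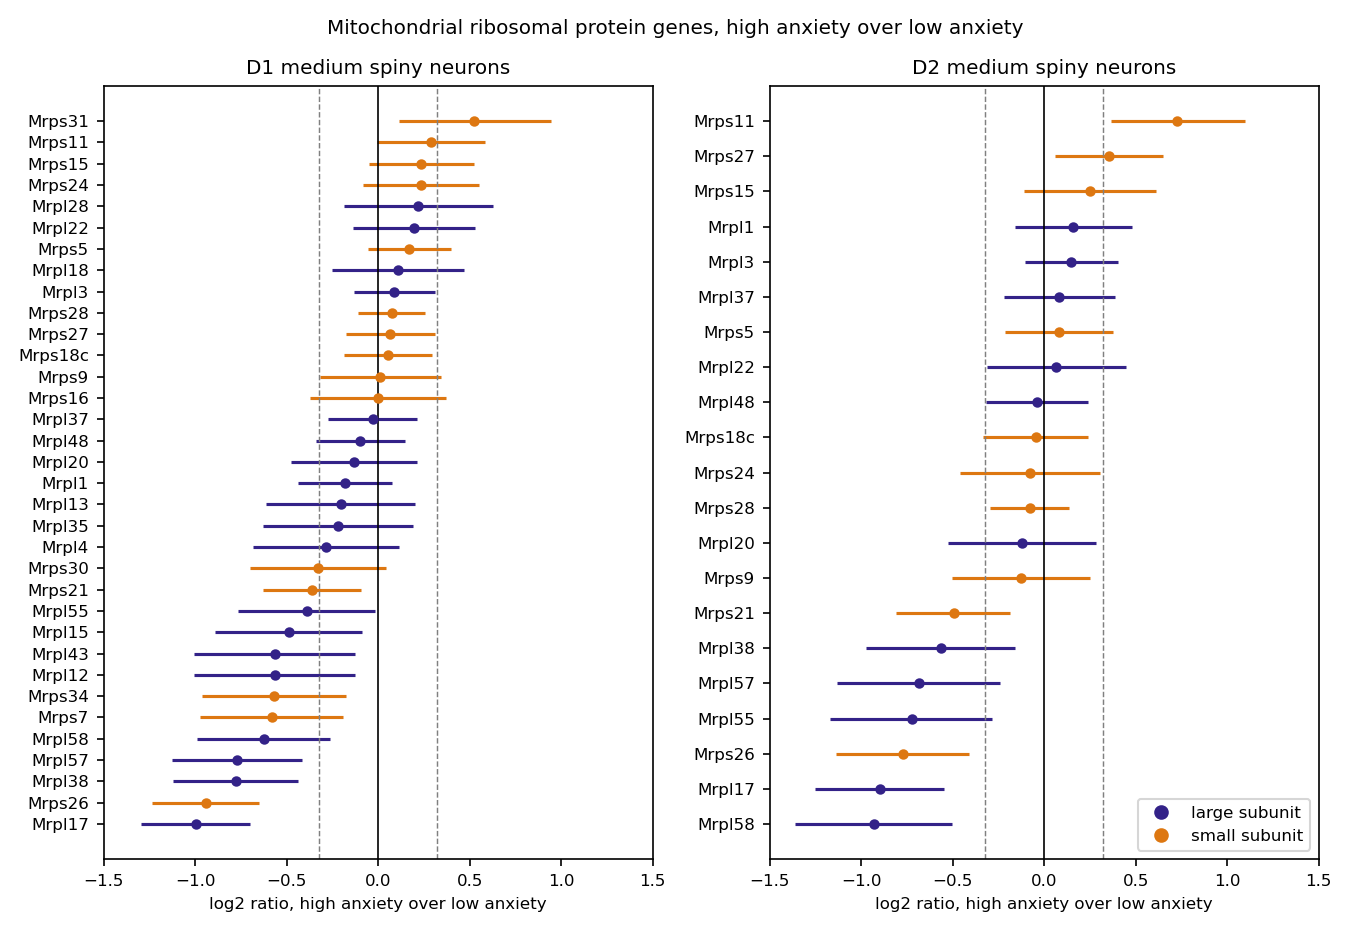
Log2 ratio of high anxiety over low anxiety for every measured member in D1 (34 members, left) and D2 neurons (21 members, right); bars are exact 95% counting intervals, colour gives the subunit, and dashed lines mark 0.32 and -0.32. Mrpl17, Mrps26, Mrpl38, Mrpl57 and Mrpl58 lie in the lower part of both panels, and Mrps11 near or at the top.

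In D2 neurons the sum of all members was 1638 CPM in low anxiety and 1532 CPM in high anxiety, a log2 ratio of -0.10 (-0.15 to -0.04). The large subunit was at -0.13 (-0.21 to -0.06) and the small subunit at -0.06 (-0.14 to 0.02). Of 21 measured members 7 were lower and 2, Mrps11 and Mrps27, were higher. Of the 6269 genes measured alike, 10.5% were lower and 7.88% were higher. Of the 21 members, 20 lay in the low-count band defined above for D1 neurons. In D1 neurons that band had larger shares than all genes, and its shares in D2 neurons are not given. The all-gene shares may thus understate the background for these members. The median was -0.08, beside -0.00 for all genes, and turned to 0.08 with a minimum of 200 UMIs. Mrpl55 had 32.0, 19.4 and 19.9 CPM in D2 neurons, a ratio of -0.72 (-1.17 to -0.28), and was at -0.39 in D1 neurons. Mrps21, a bacterial S21 homologue, had 57.6, 40.8 and 48.6 CPM in D2 neurons, a ratio of -0.50 (-0.81 to -0.19), and was at -0.36 in D1 neurons. Mrps27, a mitochondria-specific small subunit protein, had 48.0, 61.3 and 60.0 CPM in D2 neurons, a ratio of 0.35 (0.06 to 0.65).

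Outside these classes Mrpl17 was lower in high anxiety in 4 further classes with intervals below 0. These classes were picked by that interval and come from the same libraries. Values for astrocytes, oligodendrocyte precursors and microglia are not given here. Its log2 ratio of high over low anxiety was -0.86 (-1.36 to -0.36) in eccentric medium spiny neurons, from 88 and 57 UMIs. That class is uneven: a cluster led by Exph5, Stac and Adamtsl1, with 0 of the class's markers among its 10 leading genes, gave 120 of its nuclei in low anxiety and 12 in high anxiety. The ratio was -0.49 (-0.93 to -0.05) in GABAergic interneurons, -0.58 (-1.05 to -0.10) in glutamatergic neurons and -0.50 (-0.96 to -0.05) in oligodendrocytes. Mrps26 was at -0.27, -0.37, -0.27 and -0.53 in the same 4 classes, with every interval across 0. Mrpl57 went the other way in oligodendrocytes, at 0.73 (0.03 to 1.47), from 23 and 70 UMIs. Of the 5 members measured in oligodendrocytes 1, Mrpl37 at 0.47 (-0.02 to 0.98), was higher and 0 were lower. Among the 4600 genes measured there, 12% were higher and 6% lower.

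The start regions of the lowest members are shown because several members share motifs of factors known to act on nuclear genes for mitochondrial proteins. RefSeq (build GRCr8) gave a promoter window for 57 of the 72 symbols, and Mrpl38 was not among them. The NRF1 motif, GCGC then any base then TGCGC, searched on both strands over 250 bases before to 50 after the start, was in the windows of 9 of 57 members (15.8%) and in 4.25% of all 33469 windows of that length. Those 9 were Mrpl14, Mrpl17, Mrpl30, Mrpl32, Mrpl44, Mrpl45, Mrpl57, Mrps18b and Mrps26. The ETS motif CCGGAAG was in 19 members (33.3%) and 8.75% of all windows, and the YY1 motif ATGGCGGC in 11 members (19.3%) and 2.53%. Matches were counted for each motif separately, whether or not they overlapped another. Members were counted by symbol, with a match in any window of the symbol, and the background by single window. The 2 shares are thus not in the same unit, and a symbol with several windows would raise the share of members. The 150 bases before the start are given for 3 of the lowest members, each on its own strand: Mrpl17 at chr1:169575700-169575849 (minus strand), Mrpl57 at chr15:36086307-36086456 (plus strand) and Mrpl58 at chr10:101145192-101145341 (plus strand). Capitals mark NRF1 and ETS matches on either strand.
Mrpl17: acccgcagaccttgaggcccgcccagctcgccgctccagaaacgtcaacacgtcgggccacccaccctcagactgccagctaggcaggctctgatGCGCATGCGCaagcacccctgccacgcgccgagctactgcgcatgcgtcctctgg
Mrpl57: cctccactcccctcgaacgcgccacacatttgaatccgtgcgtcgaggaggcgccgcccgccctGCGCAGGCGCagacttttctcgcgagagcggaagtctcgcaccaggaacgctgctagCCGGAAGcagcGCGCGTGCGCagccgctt
Mrpl58: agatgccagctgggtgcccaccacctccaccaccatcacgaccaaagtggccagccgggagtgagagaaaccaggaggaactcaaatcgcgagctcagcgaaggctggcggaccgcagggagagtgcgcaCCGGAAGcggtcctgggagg
Mrpl17 shows 1 NRF1 match, Mrpl57 shows 2 NRF1 matches and 1 ETS match, and Mrpl58 shows 1 ETS match. In Mrps26 both motifs matched after the start, the ETS motif from base 18 and the NRF1 motif from base 30 of the transcript. Members with D1 intervals across 0 hold motifs as well: Mrpl3, Mrpl48 and Mrps18c have an ETS match. A match is a run of letters and was not tested for binding.

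The balance of the subunits was lowest in high anxiety in D1 neurons. Large over small subunit UMIs had ratios of 1.14, 1.03 and 1.06 in the 3 libraries. Subunits were taken by symbol, so Mrps18a, Mrps30 and Mrps36 counted as small. The ratio of ratios was -0.15 (-0.24 to -0.06) on the log2 scale for high over low anxiety. In D2 neurons the balance was 1.12, 1.07 and 1.15, with -0.07 (-0.18 to 0.03). In GABAergic interneurons it was 1.08, 1.08 and 1.07, and in oligodendrocytes 1.13, 1.14 and 1.12. By descent, the 26 mitochondria-specific members summed to a log2 ratio of -0.24 (-0.32 to -0.17) for high over low anxiety in D1 neurons, and the bacterial homologues to -0.09 (-0.14 to -0.03). The ratio of these 2 sums differed by -0.16 (-0.25 to -0.06). The mitochondria-specific sum includes Mrps26, Mrpl38, Mrpl57 and Mrpl58, and the homologue sum Mrpl17, all named above for their low D1 ratios. Neither sum was computed without them. The difference by descent is thus not shown for the mitochondria-specific members in general. Of 10 measured mitochondria-specific members 6 were lower and 1 was higher, and of 23 measured homologues 6 and 0. Of all genes 11.4% were lower and 7.58% higher, and in the band under 300 UMIs in both libraries 16.4% and 10%. Mrps18a, Mrps30 and Mrps36 are in neither list, and Mrps30, at -0.33, was the remaining lower member. Mrps18b, a relative of bacterial S18, was not on the homologue list and counted as mitochondria-specific.

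Other measures differed between the same libraries. The Nmb cluster held more D1 nuclei than the Ebf1 cluster in low and high anxiety, and fewer in urolithin A. Both D1 clusters had a lower sum of all members in high anxiety, at -0.09 (-0.16 to -0.03) in the Ebf1 cluster and -0.18 (-0.24 to -0.13) in the Nmb cluster. The small subunit sum was at 0.03 in the former and -0.14 in the latter. High anxiety D1 nuclei were deeper, with medians of 6030, 7675 and 6672 UMIs per nucleus in the 3 libraries. D2 medians were 5731, 7292 and 6392. In D1 neurons the mitochondrially encoded transcripts had a log2 ratio of 0.27 (0.25 to 0.29) for high over low anxiety and 0.16 (0.14 to 0.17) for urolithin A over high anxiety, and the cytosolic ribosomal protein genes 0.11 and 0.06. Markers of other cell types were present at low levels. The 11 oligodendrocyte markers summed to 150, 190 and 190 CPM in D1 and 154, 184 and 191 CPM in D2 cells, with 0 markers at 0, and 9 and 8 of them were higher in high than in low anxiety. The 10 astrocyte markers summed to 582, 671 and 506 CPM in D1 and 653, 717 and 515 CPM in D2 cells. Only 2 of the 10 in D1 and 4 in D2 cells were higher in high than in low anxiety. Aldh1l1 and Fgfr3 were at 0 in some libraries. The 11 microglial markers summed to 62.9, 63.4 and 68.5 CPM in D1 neurons, with Ptprc at 0 in low anxiety. The 8 glutamatergic markers summed to 46.5, 39.6 and 28.4 CPM there, with 2, 1 and 4 of them at 0. The part of depth, mitochondrial transcripts or RNA of other cell types in the members' differences was not tested.

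Urolithin A over high anxiety had higher sums in both classes. These ratios share the high anxiety library with those above, so the 2 sets of values are not independent. In D1 neurons the sum of all members was 1574 CPM in high anxiety and 1668 CPM in urolithin A, a log2 ratio of 0.08 (0.04 to 0.13). The large subunit was at 0.11 (0.05 to 0.17) and the small subunit at 0.06 (-0.01 to 0.12). In D2 neurons the sum was 1532 and 1705 CPM, a ratio of 0.15 (0.10 to 0.21), with the large subunit at 0.21 (0.13 to 0.28) and the small subunit at 0.10 (0.02 to 0.17). Of 33 members measured in D1 neurons 5 were higher and 2 lower, beside 8.3% higher and 4.53% lower over all 7521 genes measured alike. Of 19 measured in D2 neurons 5 were higher and 1 lower, beside 10.2% and 4.93% of 6267 genes. The low-count band defined above held 26 of the 33 members in D1 and 18 of the 19 in D2 neurons. Shares of all genes in that band are not given for this comparison, so the all-gene shares may understate the background. The medians were 0.11 in D1 and 0.18 in D2 neurons, beside 0.03 and 0.03 over all genes. The D1 median turned to -0.04 with the stricter nucleus filter of at least 1000 genes and at most 1% mitochondrial counts, and to -0.03 in the Ebf1 cluster alone. Under that filter the Nmb cluster was not named D1, so these values are not separate checks. Against low anxiety, the urolithin A sum was below 0 in D1 neurons (-0.06, -0.10 to -0.02) and above 0 in D2 neurons (0.06, 0.01 to 0.11).

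Mrps36 had the highest D1 ratio. Despite its symbol it is known as KGD4, a subunit of the alpha-ketoglutarate dehydrogenase complex. It had 90, 74 and 134 UMIs in D1 neurons, or 19.2, 14.1 and 25.6 CPM, and a ratio of 0.86 (0.44 to 1.29). In D2 neurons it had 55, 63 and 56 UMIs, a ratio of -0.05 (-0.60 to 0.49), and the difference between the 2 classes was not tested. It was at 0.73 (-0.02 to 1.48) in eccentric medium spiny neurons and -0.13 in GABAergic interneurons.

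Mrpl57 was higher in both classes, with D1 neurons at 0.45 (0.08 to 0.81) and D2 neurons at 0.73 (0.29 to 1.17). Mrpl38 was at 0.41 in D1 neurons and 0.18 (-0.25 to 0.61) in D2 neurons. Mrpl58 had ratios of 0.29 (-0.08 to 0.67) and 0.62 (0.18 to 1.07), and Mrpl17 had 0.31 (-0.01 to 0.63) and 0.49 (0.12 to 0.86). Mrps26 was at 0.33 (0.02 to 0.65) and 0.28 (-0.11 to 0.68). In D1 neurons urolithin A over low anxiety was at -0.32 for Mrpl57, -0.37 for Mrpl38, -0.33 for Mrpl58, -0.69 for Mrpl17 and -0.61 for Mrps26, so the low anxiety library was the highest for each. Mrps28 was at 0.34 (0.13 to 0.54) in D2 and 0.11 (-0.07 to 0.28) in D1 neurons. Mrps9, a bacterial S9 homologue, had 31.3, 31.6 and 41.0 CPM in D1 neurons and a ratio of 0.38 (0.08 to 0.68), with 0.34 (-0.02 to 0.70) in D2 neurons. On the lower side in D1 neurons, Mrps5, a bacterial S5 homologue at the mRNA entrance, had 62.5, 70.2 and 54.4 CPM and a ratio of -0.37 (-0.60 to -0.14). Mrps15 was at -0.35 and Mrps24, a bacterial S3 homologue, at -0.32. In D2 neurons these 3 were at -0.07, -0.05 and 0.16, all with intervals across 0. Mrpl20, a bacterial L20 homologue, was the 1 lower member in D2 neurons, at -0.38 (-0.83 to 0.06).

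**Figure D4:**
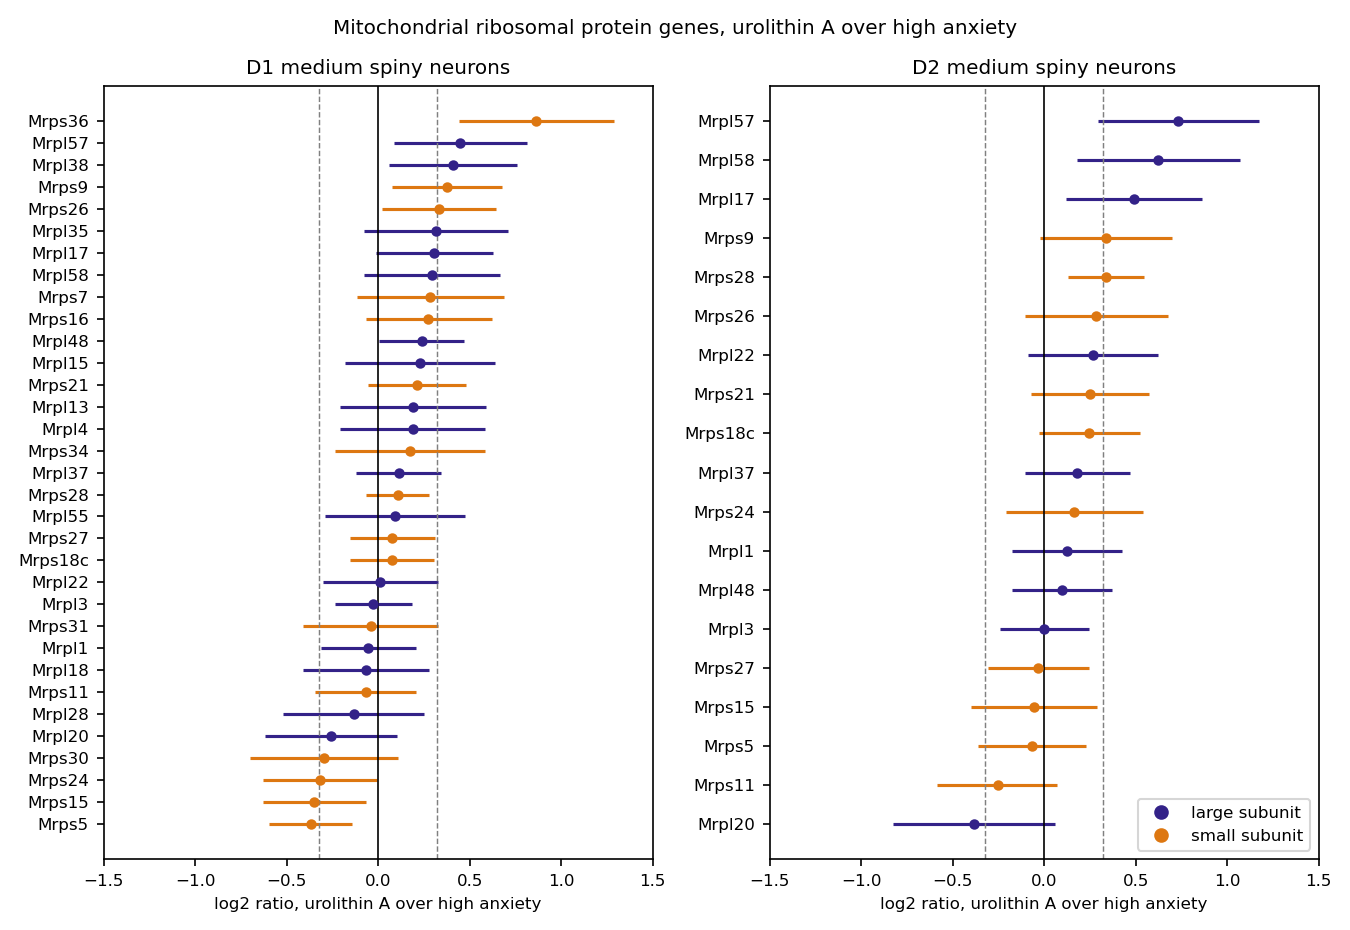
Log2 ratio of urolithin A over high anxiety for every measured member in D1 (33 members, left) and D2 neurons (19 members, right); bars are exact 95% counting intervals, colour gives the subunit, and dashed lines mark 0.32 and -0.32. Mrps36 stands highest in D1 neurons at 0.86, and Mrpl57, Mrpl58 and Mrpl17 stand highest in D2 neurons.

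**Figure D5:**
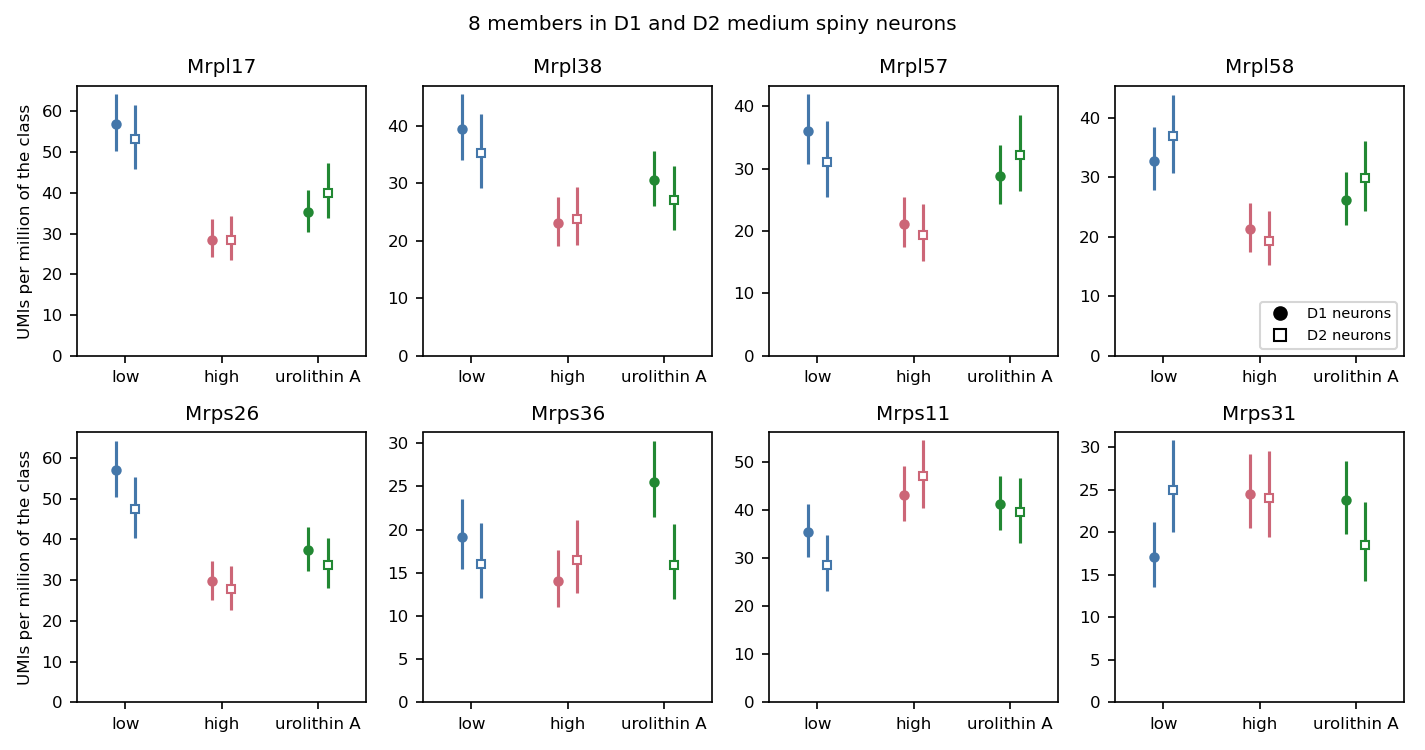
CPM for 8 members in D1 (filled circles) and D2 neurons (open squares) in the low anxiety, high anxiety and urolithin A libraries, with exact Poisson 95% intervals and y axes from 0. High anxiety is the lowest library for Mrpl17, Mrpl38, Mrpl57, Mrpl58 and Mrps26 in both classes. These members had the lowest D1 ratios of high over low anxiety, so this pattern follows in part from their choice.

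In oligodendrocytes the sum of all members was 1818, 1892 and 1906 CPM, with log2 ratios of 0.06 (-0.01 to 0.13) for high over low anxiety and 0.01 (-0.05 to 0.07) for urolithin A over high anxiety. Of the 5 members measured, 0 were higher and 0 lower in urolithin A, beside 3.29% and 5.3% of 4626 genes. In oligodendrocyte precursors both sums lay within 0.04 of 0. In astrocytes high over low anxiety was at 0.23 (0.09 to 0.38), from 793 and 733 member UMIs. In microglia it was at 0.15 (-0.02 to 0.32), from 469 and 787. The direction in astrocytes was opposite to that in D1 and D2 neurons.

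Several members have roles that their symbols do not show. Mrps18a, Mrps18b and Mrps18c are 3 relatives of bacterial S18, of which Mrps18a and also Mrps30 sit in the large subunit. In D1 neurons Mrps18c had 56.7, 58.8 and 62.0 CPM. Mrps18a had 11.9, 13.5 and 17.7 CPM and Mrps18b had 20.5, 15.6 and 16.98 CPM, both under 100 UMIs in each library. Mrps30 had 27.9, 22.3 and 18.1 CPM, the lowest in urolithin A, at -0.30 (-0.70 to 0.11) over high anxiety. Mrpl12, a stalk protein also known to bind the mitochondrial RNA polymerase, had 21.96, 14.8 and 18.1 CPM in D1 neurons, with a ratio of -0.56 (-1.01 to -0.13) for high over low anxiety. Mrps12, the decoding-centre homologue of bacterial S12, had 65, 60 and 77 UMIs there and was not measured.

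The other genes of mitochondrial translation were 67 matched symbols on 68 features. In D1 neurons their sum had a log2 ratio of -0.11 (-0.16 to -0.07) for high over low anxiety, with 2 of 32 measured higher and 3 lower, and 0.07 (0.03 to 0.11) for urolithin A over high anxiety, with 3 of 34 higher and 1 lower. Over all genes 7.58% were higher and 11.4% lower in the former comparison, and 8.3% and 4.53% in the latter, so these counts are near the background. Among the assembly factors, 1 of 9 measured was lower, Mettl17 at -0.45 (-0.87 to -0.04), and the helicase Dhx30 was at -0.30. Among the translation factors 1 of 7 was higher and 2 lower, Gfm2 and the release factor Mtrf1. Gfm2, which helps to split the ribosome after termination, had 73.5, 52.5 and 67.0 CPM, a ratio of -0.49 (-0.72 to -0.25), and in D2 neurons -0.49 (-0.76 to -0.23). Mtif3, an initiation factor, was the higher one at 0.37 (-0.03 to 0.78). The mitochondrial tRNA synthetases were level in sum, at 0.00 (-0.07 to 0.07), with 1 of 13 higher. That was Aars2, the alanyl-tRNA synthetase, with 166, 301 and 274 UMIs and a ratio of 0.69 (0.42 to 0.98) in D1 neurons, and 0.55 (0.22 to 0.88) in D2 neurons. For urolithin A over high anxiety in D1 neurons, Mterf4, which acts with Nsun4 in large subunit assembly, was at 0.45 (0.11 to 0.81) and Gfm2 at 0.35 (0.12 to 0.58). The third higher gene was the elongation factor Tsfm at 0.41 (-0.03 to 0.86), and the lower one the assembly GTPase Noa1 at -0.33 (-0.74 to 0.08). The small subunit proteins Ptcd3 and Dap3, named outside the Mrps series, were at -0.28 and -0.17 for high over low anxiety and 0.04 and 0.14 for urolithin A over high anxiety.

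The share of nuclei with a member UMI depended on depth. In D1 neurons 100%, 99.7% and 100% of nuclei had at least 1. After each nucleus was thinned to 2000 UMIs, with 5, 7 and 4 shallower nuclei left out, the shares were 96.6%, 96.3% and 95.8%, and their exact binomial intervals overlapped. For the large subunit alone the thinned shares were 85.0% (82.2 to 87.5), 82.9% (79.7 to 85.7) and 83.1% (80.2 to 85.7). These intervals cover the counting of nuclei within single libraries. Thinned to 1000 UMIs, the large subunit shares were 63.0% (59.4 to 66.4), 56.3% (52.4 to 60.1) and 55.3% (51.7 to 58.9), and low anxiety was the highest, with an interval that overlapped that of high anxiety but not that of urolithin A. The small subunit shares at 1000 UMIs were 55.9%, 55.7% and 56.1%. All cell types here are expected to use these genes, so no class could serve as a background for free RNA.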

How the data were processed

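The deposited matrices hold UMI counts per gene and barcode for 3 libraries, written by Cell Ranger 7.1.0 per the file headers, with the build mRatBN7.2 named in the submitters' processing notes. Members and gene lists were chosen with earlier results of these data known. Barcodes under 500 genes or over 5% mitochondrial counts were dropped, likely doublets were removed with Scrublet at 0.8% per 1000 nuclei, and 2000 variable genes scaled within each library, 30 components, 15 neighbours and Leiden clustering at resolution 1 (scanpy 1.11.5, leidenalg 0.10.2, Python 3.11.15) gave clusters named from 17 marker lists, of which 139 of 145 genes matched. Counts were summed per class and library and divided by the class total. Intervals are exact at 95% (Poisson for a level, conditional binomial for a ratio, Clopper-Pearson for a share), with scipy 1.17.1, and were checked on simulated counts. Each ratio compares 2 libraries, and nuclei were not used as replicates. Named genes were, in D1 and D2 neurons, the 4 highest and 4 lowest measured members of each comparison, the 2 highest and 2 lowest in oligodendrocytes, the 3 highest and 3 lowest of oligodendrocytes over D1 neurons, the 5 members per subunit with the most counts, 8 members by role, and the 2 furthest from 0 of each related list. Members and related genes outside this rule were named after their values were seen (Mtrf1 and, among the promoters, those holding a motif). Promoter windows are those of RefSeq for GRCr8. Alternatives covered the count minimum, nucleus filter, doublets, clusters, resolution, scaling, subunit assignment and thinning.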

Additional observations from a re-analysis of the deposited data

Results flagged for a closer look

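In high over low anxiety the summed log2 ratio of all members pointed up in astrocytes, at 0.23, and down in D1 neurons, at -0.14, and D2 neurons, at -0.10. For the large subunit the astrocyte value was 0.22, against -0.22 in D1 neurons and -0.13 in D2 neurons. For the small subunit astrocytes were at 0.25 and microglia at 0.37, against -0.06 in D1 neurons. In each of these the counting interval lay on 1 side of 0. The differences between classes were not tested, since each group is 1 library. The astrocyte sums rest on 793 and 733 member UMIs and the microglial small subunit sums on 207 and 406, with medians of 2086 and 2707 UMIs per astrocyte nucleus.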

How the results depend on the processing

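No paired analysis was possible because each group is 1 library. The D1 and D2 sums of all members and of the large subunit kept their sign under the alternatives run. The D1 medians of both comparisons, the D2 median of high over low anxiety and the D1 small subunit sums changed sign under some, with the values below, as did Mrps11 in D1 neurons in high over low anxiety (-0.039 in the Nmb cluster) and Mrps15 and Mrps5 in D2 neurons in urolithin A over high anxiety (0.158 and 0.013 with the stricter filter). Of the values that answer a comparison, 254 stayed close and 76 moved, most of them counts and medians over few measured members. Over 14 alternatives the D1 sum of high over low anxiety lay between -0.19 and -0.09, and over 12 the D2 sum lay between -0.13 and -0.09. In urolithin A over high anxiety the D1 sum lay between 0.05 and 0.12. Of the alternatives, 3 were chosen after seeing the data: the second D1 cluster alone, nuclei of the same clusters with at most 1% mitochondrial UMIs, and leaving out the 5 members with the most UMIs per subunit. The cause was not tested except that a higher minimum or fewer nuclei leave fewer members measured. With a minimum of 50 UMIs, D1 neurons had 4 higher and 23 lower members in high over low anxiety and 11 higher and 6 lower in urolithin A over high anxiety, and D2 neurons had 5 and 12, and 16 and 4. Of all genes at that minimum, 9.67% were higher and 13.3% lower in D1 neurons in the former comparison and 10.2% and 6.25% in the latter. In D2 neurons these shares were 9.69% and 13.8%, and 12.8% and 6.16%. With a minimum of 200 UMIs, D1 neurons had 0 higher and 3 lower with a median of 0.053 in high over low anxiety, and 1 higher in urolithin A over high anxiety. D2 neurons then had 1 higher and 0 lower with a median of 0.08, and 1 higher and 0 lower with a median of 0.099. All-gene shares at 200 UMIs were 5.92% higher and 8.15% lower, and 6.36% and 3.7%, in D1 neurons, and 6.1% and 6.97%, and 8.06% and 4.01%, in D2 neurons. With the stricter nucleus filter, D1 neurons had 2 higher, 6 lower and a median of -0.068 in high over low anxiety, and 1 higher, 1 lower, a median of -0.039 and a small subunit sum of -0.012 in urolithin A over high anxiety. D2 neurons then had 1 higher, 4 lower and a median of 0.026, and 2 higher, 0 lower, a median of 0.11 and a small subunit sum of 0.20. With no nucleus filter, D1 neurons had 3 higher, 2 lower and a median of 0.057, and 0 lower with a median of -0.006. Under both of these filters the Nmb cluster was not named D1. In the Ebf1 cluster alone, high over low anxiety had 2 higher, 3 lower, a median of 0.081, a sum of -0.094 and a small subunit sum of 0.029, and urolithin A over high anxiety had 1 lower and a median of -0.025. In the Nmb cluster alone, high over low anxiety had 0 higher, 5 lower, a median of 0.024 and a small subunit sum of -0.14, and urolithin A over high anxiety had 0 higher. In nuclei with at most 1% mitochondrial UMIs, D1 neurons had 2 higher, 7 lower and a median of 0.012, and 3 higher with a median of -0.087. D2 neurons then had 1 higher, 4 lower and a median of 0.056, and 2 higher, 0 lower, a median of 0.11 and a small subunit sum of 0.19, and oligodendrocytes over D1 neurons in high anxiety stood at 0.20. Without the 5 top members per subunit, the D1 medians were -0.25 and 0.19 with 1 lower in urolithin A, and D2 neurons had 1 higher in high over low anxiety, and 3 higher with a median of 0.27 in urolithin A over high anxiety. With doublets kept, D1 urolithin A over high anxiety had 9 higher, 1 lower and a median of 0.17, and at resolution 0.5 it had 9 higher and 1 lower. With median-of-ratios scaling it had 4 lower, and D2 neurons had 3 higher. With members left out of clustering, the D1 median of high over low anxiety was -0.075.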
